A study of Saccharomyces cerevisiae with 8 samples.

Results

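This report describes zinc excess in baker's yeast that did not express the plant defensin AhPDF1.1b. Cells of the BY4741 strain were grown with 20 mmol/L ZnSO4 (2 arrays, the zinc arrays) or without added zinc (2 arrays, the control arrays), which makes 4 of the 8 arrays of the series. The groups were taken from the array titles, and every probe with a gene symbol was included, 4060 genes of the 6226 measured. BY4741 is a haploid MATa strain with the alleles his3Δ1, leu2Δ0, met15Δ0 and ura3Δ0. All yeasts of the series carried the empty HIS3 vector pFL38H. The other 4 arrays came from yeast with and without zinc that made AhPDF1.1b from pYX212, a URA3 vector with the constitutive triose phosphate isomerase promoter. No plasmid is named in the labels for the place of pYX212 in yeast without AhPDF1.1b. The URA3 signal of this yeast, given below, lay far above that of deleted genes, although its own URA3 gene is deleted. In the paper's RT-PCR test of single genes, the control yeast carried the empty pYX212. Colonies grew on solid minimal medium with glucose, ammonium nitrate, leucine and methionine, buffered with succinate at an acid pH, and were harvested at a set colony diameter. The zinc arrays are therefore a picture of colonies that had grown on zinc, not of a short exposure. Zinc was added as its sulfate and no matching sulfate is named for the control medium, so the parts of zinc and sulfate cannot be told apart.

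Yeast takes up zinc with the plasma membrane transporters Zrt1 and Zrt2, which the transcription factor Zap1 induces when the metal is scarce, and stores an excess in the vacuole through Zrc1 and Cot1. Iron has a parallel system, in which Aft1 and Aft2 induce the uptake of reduced iron and of iron bound to siderophores. An excess of zinc is known to disturb other metals, thiols and protein folding, and zinc is also a structural or catalytic part of many yeast proteins, ribosomal proteins and alcohol dehydrogenases among them.

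The deposited values were log2 signals, 1 per probe and array, with array medians of 8.45 to 8.46. The correlation across probes was 0.997 between the zinc arrays and 0.998 between the control arrays, and the median difference between replicates was 0.0793 and 0.0727 on the log2 scale. LEU2 and MET17 (the standard name of MET15), both deleted in BY4741, gave signals of 5.54 to 5.65, which shows where these probes lie without their transcript. The background of other probes may be higher and was not measured. HIS3 from the vector gave 13.18 and 13.06 on the zinc arrays and 12.26 and 12.32 on the control arrays (log2 change 0.83, SE 0.086, adjusted p = 1.4e-05), and URA3 gave 15.56 and 15.64 with zinc and 15.40 and 15.50 without (log2 change 0.15, SE 0.1, adjusted p = 0.24). The highest signals were 15.56 and 15.64 on the zinc arrays and 15.90 and 15.89 on the control arrays. Changes of genes this near the top, URA3 among them, may be understated. The number of arrays limits the precision of every value. Both zinc arrays lay on slide 2, whereas the control arrays were divided between slides 1 and 2, so a value within slide 2 sets the zinc mean against 1 control array. In cultures measured as a whole, fewer cells of a type and less RNA per cell cannot be told apart.

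Zinc changed the level of most transcripts by a small amount and of a minority by a large one. At an adjusted p under 0.05 (limma, Benjamini-Hochberg over 6226 genes), 3695 genes differed between the media, 59.3% of those tested. Of these, 1732 (27.8%) were higher with zinc and 1963 (31.5%) were lower. The log2 change reached 1 in size for 457 genes (7.34%), 266 of them higher (4.27%) and 191 lower (3.07%). The median change over all genes was -0.03, with the outer deciles at -0.61 and 0.63. The zinc and control arrays did not overlap for 5020 genes, 80.6%, so this alone marks no gene as particular. Among the 4060 genes with a symbol, 1142 were higher and 1490 lower, with a median of -0.06. The counts for cellular functions below stand against these shares, and any change given without the word fold is a difference of log2 signal, zinc minus control.

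**Figure D1:**
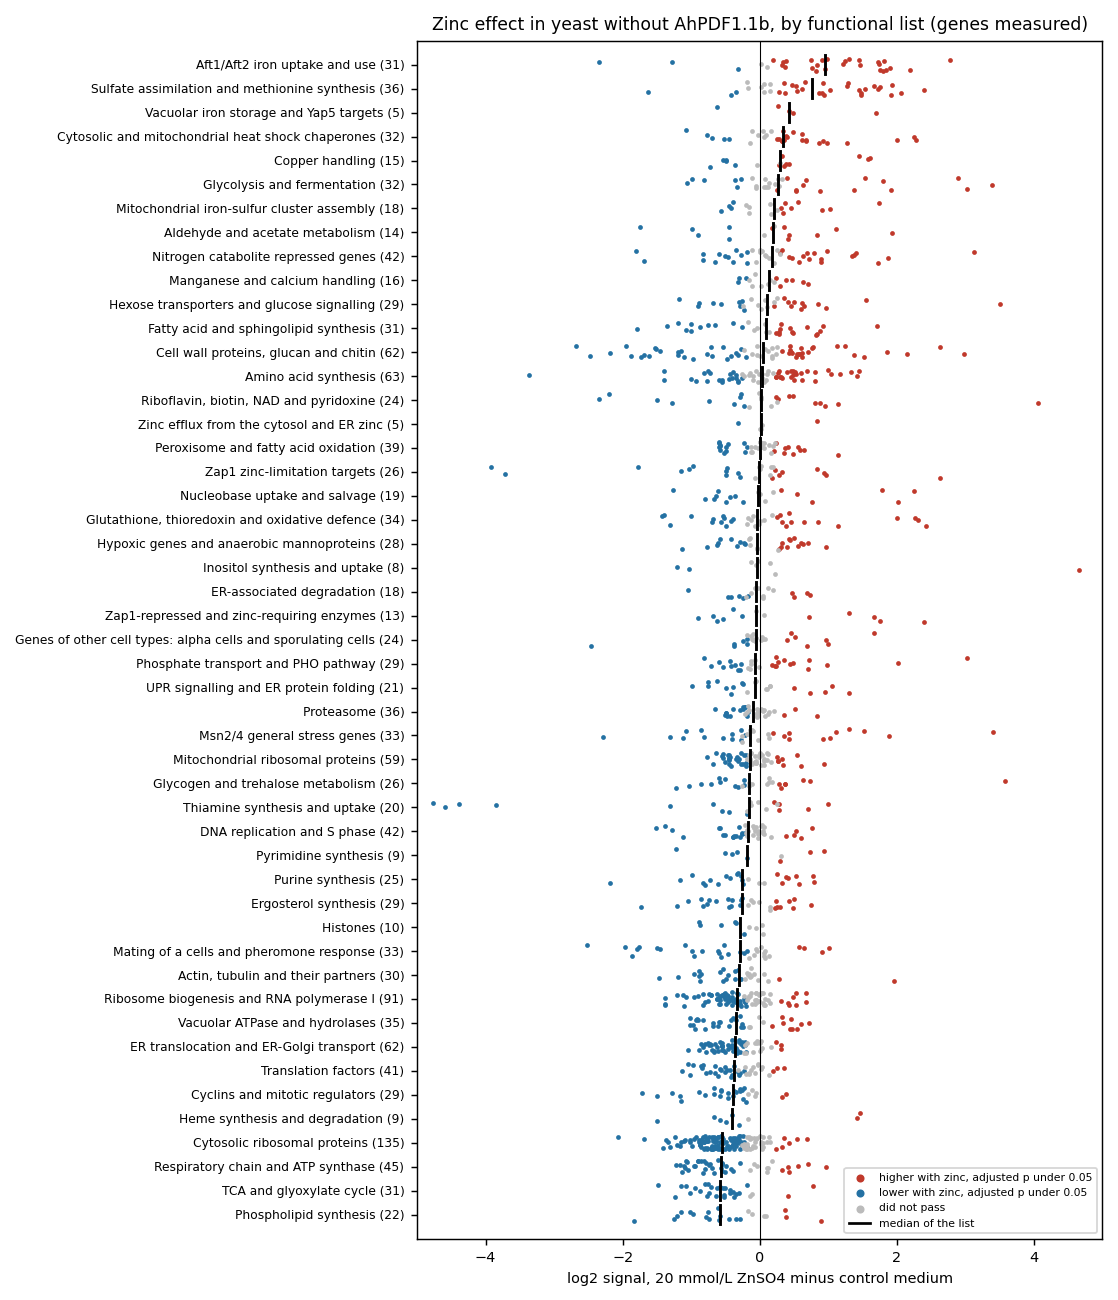
Log2 signal with 20 mmol/L ZnSO4 minus control medium (x axis) for each measured gene of 49 functional lists (rows, with the number of genes), sorted by their median (black bar). Red and blue points passed the test (adjusted p under 0.05, limma), grey points did not. The medians ran from 0.95 for genes of Aft1 and Aft2 to -0.58 for phospholipid synthesis, and most lists held genes of both directions.

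The largest increases belonged to genes of unlike functions. INM1, which encodes an inositol monophosphatase, gave 12.52 and 12.27 with zinc, against 7.71 and 7.75 on control medium, a 25.4-fold increase (log2 change 4.66, SE 0.084, adjusted p = 2.6e-11). The riboflavin transporter gene MCH5 gave 12.29 and 12.41 on the zinc arrays and 8.26 and 8.33 on the control arrays, a 16.6-fold increase (adjusted p = 2.2e-10). Both genes stood far above their control arrays on each zinc array. PCL10, a cyclin of the Pho85 kinase that acts on glycogen synthase, gave 11.58 and 11.58 with zinc and 7.98 and 8.02 without (11.9-fold). AMD2, a putative amidase, gave 11.54 and 11.46 with zinc, against 8.32 and 8.44 on control medium (8.73-fold). The polyamine exporter gene TPO2 gave 13.35 and 13.41 on the zinc arrays and 10.23 and 10.37 on the control arrays (8.49-fold), although TPO1, another polyamine exporter, fell by 0.65. YRO2, which encodes a membrane protein related to Hsp30, gave 14.06 and 13.84 with zinc and 10.56 and 10.54 without (10.6-fold), and its close relative MRH1 had a log2 change of -0.03 (adjusted p = 0.87). AQR1, a transporter of the multidrug family, rose 5.13-fold, and DAK2, a dihydroxyacetone kinase, rose 5.09-fold.

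The largest decreases were concentrated in thiamine, zinc and biotin genes and in genes of the cell surface. Of the 20 largest, 4 belong to the THI5 family, 2 are zinc-limitation genes, 2 are biotin genes, 5 encode wall proteins or enzymes that act on the wall and 3 are mating genes. LYS9, the saccharopine dehydrogenase of lysine synthesis, gave 9.15 and 9.11 with zinc, against 12.41 and 12.59 on control medium, a 10.3-fold decrease (log2 change -3.37, SE 0.088, adjusted p = 5.9e-10). GRE1, a hydrophilin induced by drying and osmotic stress, gave 11.26 and 10.97 on the zinc arrays and 13.34 and 13.45 on the control arrays (4.86-fold lower). IMD2, an IMP dehydrogenase gene, gave 6.36 and 6.38 with zinc and 8.46 and 8.65 without (4.56-fold lower). In all 40 genes plotted the groups did not overlap, which was part of their selection.

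**Figure D2:**
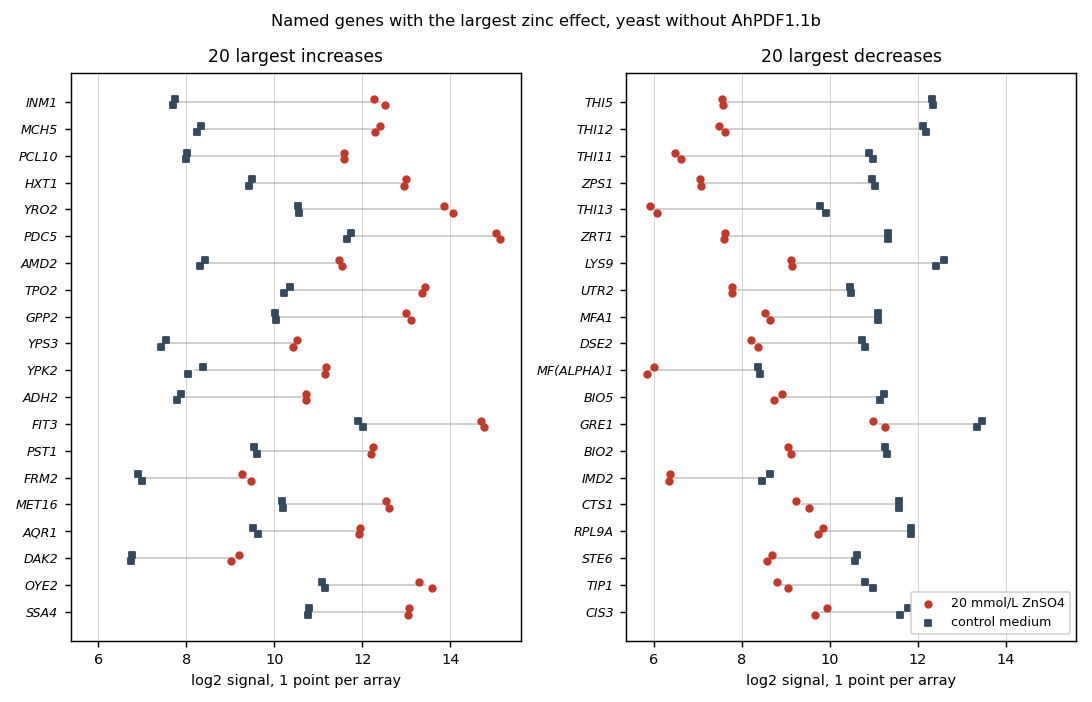
Log2 signal (x axis) of the 20 named genes with the largest increase (left) and decrease (right) among those that passed the test without overlap, 1 point per array, 2 zinc arrays in red and 2 control arrays in dark slate, with a line between the means. Increases ran from 4.66 for INM1 to 2.27 for SSA4, decreases from -4.76 for THI5 to -1.88 for CIS3. Signals of different genes are not comparable, since each gene has its own probe.

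The zinc uptake genes were far lower on the zinc medium. ZRT1, the high-affinity zinc transporter gene, gave 7.60 and 7.62 with zinc, against 11.33 and 11.32 on control medium, a 13.1-fold decrease (log2 change -3.72, SE 0.064, adjusted p = 2.6e-11). ZPS1, which encodes a cell wall protein induced by zinc limitation, gave 7.07 and 7.06 on the zinc arrays and 11.03 and 10.96 on the control arrays, a 15.2-fold decrease (adjusted p = 2.6e-11). ZRT2, the low-affinity transporter gene, gave 8.11 and 8.17 with zinc and 9.89 and 9.93 without (3.41-fold lower), and ZAP1 itself gave 6.70 and 6.82 with zinc, against 7.77 and 7.70 on control medium (1.96-fold lower). These zinc and control arrays lay well apart. In contrast, FET4, a low-affinity transporter of iron, copper and zinc that Zap1 also activates, was higher with zinc, at 9.98 and 10.09 on the zinc arrays and 9.04 and 9.09 on the control arrays (1.96-fold, adjusted p = 1.3e-06).

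Over the 26 measured genes of the list of Zap1 zinc-limitation targets, 8 rose, 11 fell and 7 did not pass, with a median of -0.00 beside -0.03 for all genes. The number that rose was 5 without either control array or with slide as a block. The decrease did not extend to the whole list. DPP1, a diacylglycerol pyrophosphate phosphatase, fell by 1.14, INO1, the inositol phosphate synthase, by 1.03 and the mannosyltransferase gene MNT2 by 0.48. The cell wall gene PST1 gave 12.19 and 12.23 with zinc and 9.61 and 9.55 without and rose 6.22-fold, URA10 rose by 0.93 and ZRG8 by 0.84. ADH4, an alcohol dehydrogenase gene of zinc-limited cells, had a change of 0.18 (adjusted p = 0.046) and lost its call when any of the 4 arrays except zinc replicate 2 was left out or slide was a block (adjusted p = 0.13).

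Most genes that move zinc out of the cytosol changed little. ZRC1, the main vacuolar zinc transporter, gave 9.99 and 10.01 with zinc, against 10.02 and 9.94 on control medium (log2 change 0.02, SE 0.091, adjusted p = 0.89), and its arrays overlapped. Its relative COT1 gave 11.88 and 11.98 on the zinc arrays and 11.08 and 11.11 on the control arrays and rose 1.78-fold (adjusted p = 5e-05). MSC2 and ZRG17, which form the transporter that brings zinc into the ER, had changes of 0.03 and 0.01 (adjusted p = 0.81 and 0.96). ZRT3, which releases zinc from the vacuole, had a change of -0.32 (adjusted p = 0.03), a call that was lost without any of the 4 arrays. Over the list of efflux and ER zinc genes, which also holds ZRT3, 1 of 5 rose (COT1) and 1 fell (ZRT3). Of 13 genes for zinc-requiring enzymes or genes repressed by Zap1, 5 rose and 6 fell. The 4 largest increases of that list were the sulfate genes MET16, MET3 and MET14, and CTH1, an mRNA-binding zinc finger protein gene. The zinc enzymes ADH1 and ADH3 had changes of -0.06 and 0.06 (adjusted p = 0.57 and 0.64), and the copper-zinc superoxide dismutase gene SOD1 fell by 0.54.

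Iron uptake genes were higher with zinc, with the highest median and the largest share of increases among the 49 lists. Of 31 measured genes of the Aft1/Aft2 list, 26 rose (83.9%), 3 fell and 2 did not pass, with a median of 0.95. The siderophore genes were the clearest. FIT3, a mannoprotein that retains siderophores in the wall, gave 14.77 and 14.69 with zinc and 12.01 and 11.90 without, a 6.85-fold increase (log2 change 2.78, SE 0.069, adjusted p = 4.1e-10), and FIT2 gave 12.69 and 12.45 with zinc, against 10.36 and 10.40 on control medium (4.56-fold). The siderophore transporter genes SIT1, ENB1, ARN1 and ARN2 rose 3.57-fold, 3.47-fold, 3.38-fold and 3.3-fold. FIT1, the remaining member of the FIT family, was the exception among these 7 genes, at 6.88 and 7.00 on the zinc arrays and 7.27 and 7.24 on the control arrays (-0.32, adjusted p = 0.002).

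Of 10 genes of the reductive route, 8 rose, none fell and 2, FTR1 and FRE1, did not pass, with a median of 0.90. FET3, the multicopper ferroxidase, gave 12.42 and 12.53 with zinc and 10.49 and 10.65 without and rose 3.74-fold (log2 change 1.90, SE 0.11, adjusted p = 2.5e-07), whereas FTR1, the permease with which it forms a complex, gave 9.89 and 9.93 with zinc, against 9.79 and 9.82 on control medium (log2 change 0.10, SE 0.072, adjusted p = 0.26). Among the metalloreductase genes, FRE3 rose by 1.45, FRE6 by 1.25 and FRE2 by 0.97, and FRE1 had a change of 0.01 (adjusted p = 0.9). CCC2, the copper pump that loads Fet3, rose by 1.21. The genes for saving and recycling iron were also higher: TIS11, which marks mRNAs of iron proteins for decay, rose by 1.81, the heme oxygenase gene HMX1 by 1.47, SMF3, an exporter of vacuolar iron, by 0.91 and AFT1 by 0.76. The 3 genes of the list that fell were FIT1 and the biotin genes VHT1 and BIO5.

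Of 5 measured genes for vacuolar iron storage and targets of Yap5, 4 rose and 1 fell, with a median of 0.42. YAP5, the iron-sensing activator, gave 10.09 and 10.12 on the zinc arrays and 8.39 and 8.43 on the control arrays and rose 3.25-fold, and GRX3, a cytosolic monothiol glutaredoxin that acts with Aft1, rose by 0.49. The gene that fell was CCC1, the vacuolar iron importer, by 0.63. Of 18 genes for iron-sulfur cluster assembly, 8 rose and 4 fell. ISU2, a scaffold for the clusters, gave 10.48 and 10.20 with zinc and 8.62 and 8.56 without and rose 3.35-fold, and its paralogue ISU1 rose 1.48-fold. The mitochondrial Hsp70 gene SSQ1 and the ferredoxin gene YAH1 rose by 1.02 and 0.90, and ARH1, the reductase of that ferredoxin, fell by 0.45. Of 9 genes of heme synthesis and degradation, 2 rose, the heme oxygenase gene HMX1 given above among them, and 6 fell. HEM15, the ferrochelatase that inserts iron, gave 8.22 and 8.21 with zinc, against 9.85 and 9.60 on control medium (2.84-fold lower), and HEM12, the uroporphyrinogen decarboxylase, gave 9.23 and 9.28 on the zinc arrays and 7.82 and 7.84 on the control arrays (2.67-fold higher). ACO1, the iron-sulfur aconitase, fell by 1.48.

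Among 15 copper genes, 8 rose and 5 fell. CCS1, which loads copper into Sod1, gave 11.98 and 11.81 with zinc and 10.29 and 10.28 without and rose 3.06-fold (adjusted p = 4.9e-08). MAC1, the activator of copper uptake, rose 2.99-fold, although its target CTR1, the copper transporter, fell by 0.49 and FRE1, another target, did not pass. PCA1, a P-type ATPase for cadmium and copper, rose 2.72-fold, and the metallothionein gene CUP1-1 rose by 0.42. CRS5, the other metallothionein gene, had a change of -0.04 (adjusted p = 0.61). Of 16 genes for manganese and calcium, 6 rose and 3 fell, and the number that fell was 0 without zinc replicate 1 and 1 without any other of the 4 arrays. The calcineurin subunit gene CMP2 rose by 0.38 and its regulator RCN1 by 0.47.

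**Figure D3:**
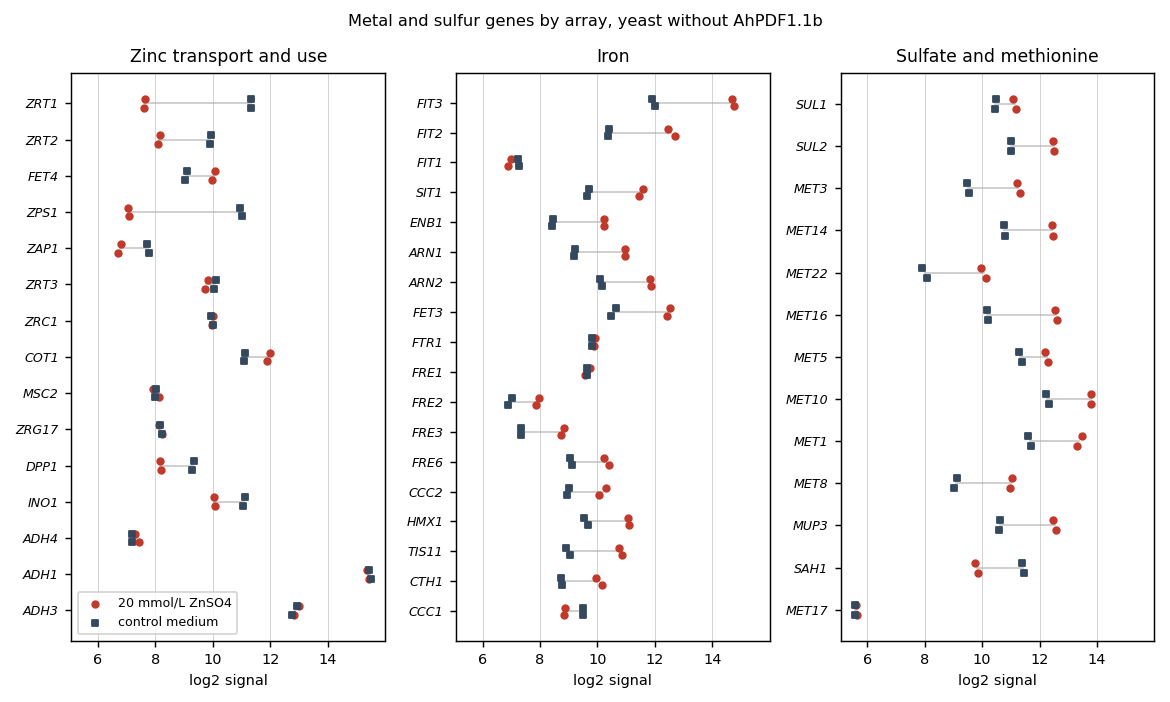
Log2 signal (x axis) of zinc (left), iron (middle) and sulfate and methionine genes (right), 1 point per array, 2 zinc arrays in red and 2 control arrays in dark slate. ZRT1, ZRT2, ZPS1 and ZAP1 lay lower with zinc, most iron uptake genes and all 10 genes of sulfate uptake and reduction lay higher, and ZRC1, FTR1, FRE1 and the deleted MET17 overlapped or nearly so.

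Vitamin genes held the largest decreases of the comparison. THI5, THI11, THI12 and THI13 encode nearly identical enzymes that make the pyrimidine part of thiamine, so their probes may share signal. THI5 gave 7.58 and 7.55 with zinc, against 12.33 and 12.32 on control medium, a 27.1-fold decrease (log2 change -4.76, SE 0.062, adjusted p = 8.2e-12). THI12 gave 7.63 and 7.48 on the zinc arrays and 12.19 and 12.12 on the control arrays (24.2-fold lower), THI11 gave 6.63 and 6.48 with zinc and 10.99 and 10.89 without (21-fold lower) and THI13 gave 6.08 and 5.93 with zinc, against 9.92 and 9.79 on control medium (at least 14.4-fold lower, since its zinc signals lay not far above those of the deleted genes). THI7, the thiamine transporter gene, fell by 1.31. Other genes of the pathway moved both ways. THI4, which makes the thiazole part of thiamine and is regulated with THI5 by thiamine, gave 14.39 and 14.45 on the zinc arrays and 14.55 and 14.56 on the control arrays (log2 change -0.14, SE 0.064, adjusted p = 0.093). THI6, which joins both parts, rose by 0.99 and THI21, a kinase of the pyrimidine part, by 0.71. Of the 20 thiamine genes measured, 5 rose and 9 fell, and the number that rose was 3 without zinc replicate 1 or without control replicate 2.

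All 5 biotin genes fell. BIO2, the iron-sulfur biotin synthase, gave 9.13 and 9.04 with zinc and 11.30 and 11.26 without (4.58-fold lower, adjusted p = 3.3e-09), and BIO5, which takes up a biotin precursor, gave 8.74 and 8.92 with zinc, against 11.14 and 11.22 on control medium (5.09-fold lower, adjusted p = 3.3e-09). BIO3, VHT1 (the biotin permease gene) and BIO4 fell by 1.50, 1.28 and 0.74. Of 9 riboflavin genes 4 rose, 1 fell and 4 did not pass. Beside MCH5, RIB1 rose by 0.95, RIB5 by 0.80 and RIB3 by 0.42, and RIB2 fell by 0.38. In the joint list of riboflavin, biotin, NAD and pyridoxine genes, 9 of 24 rose and 9 fell.

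Genes for sulfate assimilation were higher as a block. Of 36 genes of sulfate and methionine metabolism, 26 rose (72.2%), 3 fell and 7 did not pass, with a median of 0.76. All 10 genes from sulfate uptake to sulfide rose, by 0.66 to 2.39. MET16, the PAPS reductase, gave 12.61 and 12.54 on the zinc arrays and 10.19 and 10.17 on the control arrays, a 5.26-fold increase (log2 change 2.39, SE 0.068, adjusted p = 1.1e-09). MET3, the ATP sulfurylase, gave 11.32 and 11.21 with zinc and 9.56 and 9.47 without (3.36-fold), and the sulfite reductase gene MET10 gave 13.80 and 13.80 with zinc, against 12.33 and 12.21 on control medium (2.9-fold). MET22, the phosphatase that clears the by-product of Met16, rose 4.18-fold, and MET8 and MET1, which make the siroheme of sulfite reductase, rose 3.81-fold and 3.31-fold. The permease genes SUL2 and SUL1 rose by 1.48 and 0.66. Sulfide is normally fixed by Met17, which this strain lacks.

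Farther on, the picture was uneven. The low-affinity methionine permease gene MUP3 gave 12.59 and 12.47 on the zinc arrays and 10.60 and 10.63 on the control arrays (3.76-fold), and the high-affinity MUP1 rose by 0.90. CYS3 and STR3, which exchange sulfur between cysteine and homocysteine in opposite directions, rose by 1.48 and 1.29. MET32 and MET28, regulators of the pathway, rose by 1.03 and 0.93. SAH1, which removes S-adenosylhomocysteine, was the only large decrease of the list, at 9.87 and 9.74 with zinc and 11.47 and 11.39 without (3.08-fold lower). GSH1, the first enzyme of glutathione synthesis, rose by 0.85.

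Redox genes moved in both directions. Of 34 genes for glutathione, thioredoxin and oxidative defence, 13 rose and 12 fell, and the median was -0.04. OYE2, an NADPH oxidoreductase (old yellow enzyme), gave 13.58 and 13.28 with zinc, against 11.15 and 11.08 on control medium (4.97-fold), and its paralogue OYE3 gave 12.20 and 12.45 on the zinc arrays and 10.29 and 10.34 on the control arrays (4.02-fold). The glutathione transferase gene GTT2 gave 12.13 and 12.06 with zinc and 9.79 and 9.85 without (4.83-fold), and FRM2, a nitroreductase-like protein gene, gave 9.48 and 9.26 with zinc, against 6.99 and 6.91 on control medium (5.36-fold). On the other side, the thioredoxin gene TRX1 gave 9.13 and 9.08 on the zinc arrays and 10.58 and 10.50 on the control arrays (2.7-fold lower), although TRX2 had a change of 0.07 (adjusted p = 0.72). The cytosolic catalase gene CTT1 fell by 1.31, HYR1, a peroxidase and peroxide sensor, by 1.00, the NADPH-producing GND1 by 1.40 and the mitochondrial SOD2 by 0.69. CTA1, the peroxisomal catalase, rose by 1.14.

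Heat shock genes were mostly higher. Of 32 chaperone genes, 20 rose (62.5%) and 5 fell, with a median of 0.33. SSA4, the strongly heat-inducible cytosolic Hsp70, gave 13.04 and 13.06 with zinc and 10.76 and 10.80 without (4.83-fold, adjusted p = 1.4e-09), and the Hsp110 gene SSE2 gave 11.96 and 11.54 with zinc, against 9.54 and 9.46 on control medium (4.75-fold). BTN2, which sorts misfolded proteins, gave 11.64 and 11.50 on the zinc arrays and 9.62 and 9.50 on the control arrays (4.02-fold). The mitochondrial disaggregase gene HSP78 rose by 1.27, HSP82 by 0.98 and HSP104 by 0.87. The Hsp70 genes of the ribosome, SSB1 and SSB2, fell by 0.77 and 0.70, as did SSA3 by 0.46. HSP12, a small membrane-associated heat shock protein gene and a usual marker of general stress, fell by 1.08.

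The general stress genes that Msn2 and Msn4 regulate did not move together. Of 33, 11 rose and 12 fell, close to the shares over all genes, with a median of -0.14. Beside YRO2, the wall gene YGP1 gave 13.85 and 13.74 with zinc and 11.97 and 11.84 without (3.71-fold) and SPI1, another wall protein gene, gave 14.51 and 14.29 with zinc, against 12.91 and 12.84 on control medium (2.88-fold). ALD3, an aldehyde dehydrogenase gene, rose by 1.11. GRE1, CTT1 and HSP12 were among those that fell, and the glycogen phosphorylase gene GPH1 fell by 0.85.

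Of 29 hexose transporter and glucose signalling genes, 12 rose and 9 fell. HXT1, the low-affinity hexose transporter of high glucose, gave 12.95 and 12.99 on the zinc arrays and 9.43 and 9.50 on the control arrays, a 11.3-fold increase (log2 change 3.50, SE 0.069, adjusted p = 5.8e-11), and HXT3, also of low affinity, gave 14.35 and 14.47 with zinc and 12.87 and 12.85 without (2.93-fold). HXT2, HXT6 and HXT7, high-affinity transporter genes used when glucose is low, fell by 0.68, 0.89 and 0.88. The HXT6 and HXT7 coding sequences are nearly identical. SUC2, the glucose-repressed invertase gene, gave 9.99 and 9.90 with zinc, against 11.11 and 11.13 on control medium (2.26-fold lower), and of the hexokinase genes HXK2 was higher by 0.40 and HXK1 lower by 0.82. MIG2, a glucose repressor, rose by 0.85, RGT2, a sensor of high glucose, by 0.97, and PCK1, the key enzyme of gluconeogenesis, fell by 1.06.

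Glycolytic and fermentative genes rose in 14 of 32 cases and fell in 6. PDC5, a minor pyruvate decarboxylase gene that is known to respond to thiamine and to loss of PDC1, gave 15.13 and 15.04 on the zinc arrays and 11.66 and 11.74 on the control arrays, a 10.5-fold increase (log2 change 3.39, SE 0.087, adjusted p = 5e-10). The main gene, PDC1, gave 15.20 and 15.31 with zinc and 14.81 and 15.12 without (log2 change 0.29, SE 0.14, adjusted p = 0.11). Its signals lay near the highest of the arrays, so its change may be understated. ADH2, the glucose-repressed alcohol dehydrogenase that consumes ethanol, gave 10.73 and 10.72 with zinc, against 7.79 and 7.88 on control medium (7.41-fold), beside the nearly equal values of ADH1 in both media. ENO1 and TDH1 rose 3.49-fold and 2.9-fold, and their paralogues ENO2 and TDH2 1.59-fold and 1.55-fold. These pairs are similar enough that their probes may share signal. TDH3 had a change of -0.33 (adjusted p = 0.02), a call lost without zinc replicate 2 or control replicate 1. In glycerol synthesis, the phosphatase gene GPP2 gave 13.11 and 12.99 on the zinc arrays and 10.04 and 10.01 on the control arrays (8.14-fold), whereas GPP1 had a change of 0.08 and GPD1, the dehydrogenase of the same route, fell by 0.99. ALD5, a mitochondrial aldehyde dehydrogenase gene, rose 3.82-fold and SFA1, a formaldehyde and alcohol dehydrogenase gene, by 0.83. ALD6 and ACS2, the cytosolic enzymes that make acetate and acetyl-CoA, fell by 0.90 and 1.75. Of 14 aldehyde and acetate genes, 7 rose and 5 fell.

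Among 26 genes of reserve carbohydrates, 7 rose and 11 fell. GSY1, a glycogen synthase gene, fell by 1.23, GPH1 as given, and PGM1, a phosphoglucomutase gene, by 1.04. The trehalose synthase gene TPS1 fell by 0.59, while TSL1, a subunit of the same complex, rose by 0.62 and the trehalase gene NTH1 by 0.73.

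**Figure D4:**
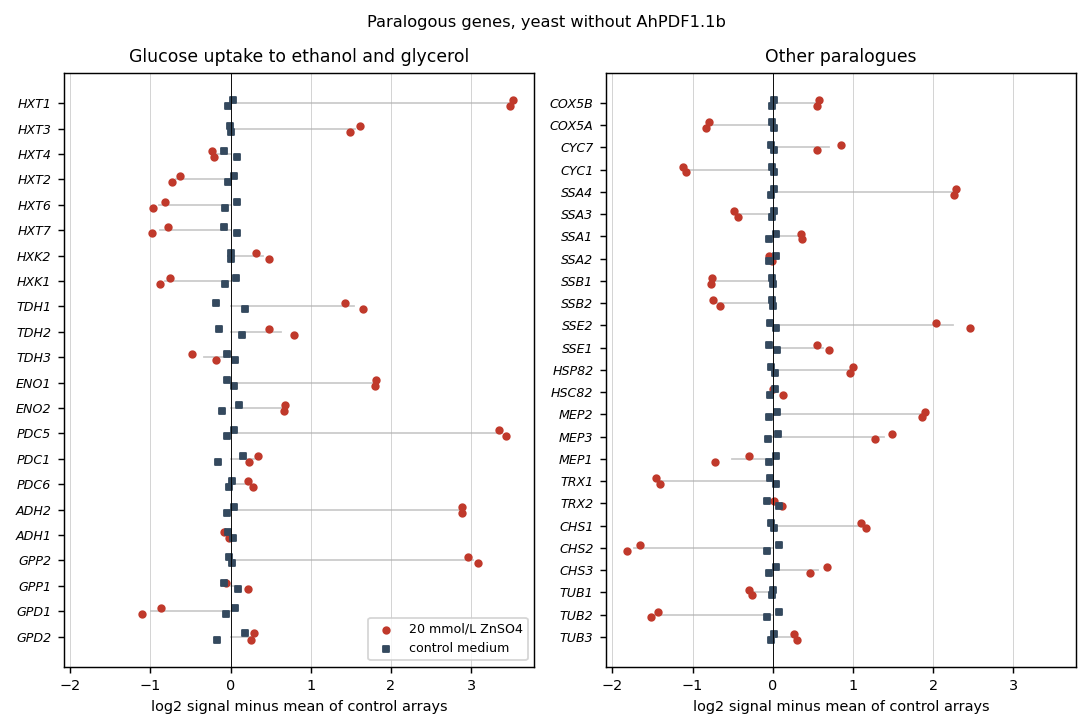
Log2 signal minus the mean of the control arrays (x axis) for paralogous genes of glucose metabolism (left) and other functions (right), 1 point per array, 2 zinc arrays in red and 2 control arrays in dark slate. HXT1, PDC5, ADH2, GPP2, SSA4 and SSE2 stood more than 2 log2 units above their control arrays, while their relatives HXT7, PDC1, ADH1, GPP1 and SSA2 lay near or below them.

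Genes of respiration fell together. In the TCA and glyoxylate cycle 27 of 31 fell (87.1%) and 2 rose, with a median of -0.58. ACO1 gave 10.70 and 10.85 with zinc and 12.18 and 12.33 without (2.79-fold lower), and all 4 succinate dehydrogenase genes fell, by 0.58 for SDH4 to 1.24 for SDH3. LPD1, the lipoamide dehydrogenase, fell by 1.02, CIT3, a mitochondrial citrate synthase gene, by 1.07 and the malate synthase gene MLS1 by 0.87. CIT1, the main citrate synthase gene, fell by only 0.31. In the respiratory chain and ATP synthase 32 of 45 fell (71.1%) and 6 rose, with a median of -0.56.

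The decrease covered complexes III, IV and V, with 8 of 9, 7 of 9 and 12 of 13 measured genes lower. QCR7 of complex III gave 11.02 and 11.03 with zinc, against 12.21 and 12.16 on control medium (2.24-fold lower), COX8 of complex IV gave 9.25 and 9.21 on the zinc arrays and 10.43 and 10.29 on the control arrays (2.19-fold lower) and ATP7 of the ATP synthase gave 11.09 and 11.10 with zinc and 12.32 and 12.31 without (2.33-fold lower). CYC1, the main cytochrome c gene, gave 9.39 and 9.35 with zinc, against 10.48 and 10.46 on control medium (log2 change -1.10), whereas CYC7, the isoform of low oxygen, gave 11.73 and 12.03 on the zinc arrays and 11.20 and 11.16 on the control arrays (1.62-fold higher). The subunit pair of complex IV did the same, with COX5A lower by 0.81 and the hypoxic COX5B higher by 0.56. NDE1, an external NADH dehydrogenase gene, rose by 0.96, and HAP4, an activator of respiratory genes, fell by 0.50. Of 59 mitochondrial ribosomal protein genes, 26 fell and 8 rose, none by 1 or more. The smallest p of that list went to RSM22 and MRPL24, which rose by 0.94 and 0.60, and to RSM7 and NAM9, which fell by 0.77 and 0.63.

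As a list, hypoxic genes moved both ways, by -1.13 to 0.97. The median was -0.04, and 0.27 when the dimmest 25% of all genes were left out. Of 28, 12 rose and 10 fell, and without control replicate 1 the number that fell was 6. Among those that fell, AUS1, a sterol importer gene, and SUT1, which induces sterol uptake, were lower by 0.60 and 0.62. The hypoxic heme gene HEM13 fell by 0.57.

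Genes for nitrogen use moved in both directions. Of 42 genes under nitrogen catabolite repression, 18 rose and 13 fell. The ammonium permease genes MEP2 and MEP3 gave 11.33 and 11.36 with zinc and 9.42 and 9.52 without (3.68-fold) and 9.81 and 10.03 with zinc, against 8.48 and 8.61 on control medium (2.61-fold), while MEP1 fell by 0.51. AGP1, a broad amino acid permease gene, gave 13.02 and 13.14 on the zinc arrays and 11.22 and 11.49 on the control arrays (3.31-fold). The arginase gene CAR1 rose by 1.40, the proline oxidase gene PUT1 by 1.35 and the GABA permease gene UGA4 by 0.98. The general permease gene GAP1 gave 9.96 and 10.43 with zinc and 9.66 and 10.13 without (log2 change 0.30, SE 0.2, adjusted p = 0.23), and its groups overlapped. Glutamate synthesis went down, with GDH1, the glutamate dehydrogenase, at 9.48 and 9.46 with zinc, against 11.30 and 11.26 on control medium (3.5-fold lower) and GLT1, the glutamate synthase, at 10.29 and 10.43 on the zinc arrays and 11.95 and 12.15 on the control arrays (3.22-fold lower), and GLN1, the glutamine synthetase, rose by 0.89.

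Of 63 amino acid synthesis genes, 26 rose and 21 fell, and without zinc replicate 1 the number that rose was 17. HOM3, the aspartate kinase, gave 12.48 and 12.26 with zinc and 10.95 and 10.91 without (2.72-fold), HIS1, the first enzyme of histidine synthesis, gave 11.84 and 11.62 with zinc, against 10.31 and 10.32 on control medium (2.67-fold) and ARG7 of arginine synthesis gave 12.57 and 12.57 on the zinc arrays and 11.30 and 11.19 on the control arrays (2.51-fold). In lysine synthesis 7 of 8 genes fell, though LYS2 and LYS20 lost their calls without some of the 4 arrays. Beside LYS9, the homoaconitase gene LYS4 fell by 1.00, LYS21 by 0.93, LYS12 by 0.72 and LYS1 by 0.59. LYS5, which activates Lys2, was the member that rose, by 0.51. ARG1 fell by 0.82.

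Nucleotide genes moved both ways. In purine synthesis 14 of 25 fell and 8 rose. Beside IMD2, its close paralogue IMD3 gave 9.40 and 9.41 with zinc and 10.57 and 10.58 without (2.25-fold lower), and the probes may share signal. ADE13 and ADE2, of the pathway to IMP and AMP, fell by 0.99 and 0.83. Of 9 pyrimidine genes 5 fell and 3 rose: the CTP synthase gene URA7 fell by 1.22 and the kinase gene URA6 rose by 0.73. Among 19 salvage genes 6 rose and 9 fell, 3 and 1 of them by 1 or more. URH1, the uridine nucleosidase, gave 10.36 and 10.41 with zinc, against 8.07 and 8.20 on control medium (4.77-fold), and FCY22 and FCY21, paralogues of the purine-cytosine permease gene, gave 9.15 and 9.16 on the zinc arrays and 7.11 and 7.19 on the control arrays (4.03-fold) and 8.42 and 8.47 with zinc and 6.61 and 6.72 without (3.43-fold). PNP1, the purine nucleoside phosphorylase, fell by 0.79.

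Phospholipid genes were mostly lower. Of 22 phospholipid genes, 15 fell (68.2%) and 3 rose, with a median of -0.58, the lowest of the 49 lists beside that of the TCA cycle. OPI3, the methyltransferase that ends the synthesis of phosphatidylcholine, gave 12.56 and 12.83 with zinc, against 14.46 and 14.59 on control medium (3.55-fold lower, adjusted p = 8.2e-08). CHO1, CHO2 and HNM1 (the phosphatidylserine synthase, the first methyltransferase and the choline transporter) fell by 1.21, 1.02 and 1.25, and EPT1, an ethanolamine phosphotransferase, by 0.97. PCT1, which makes CDP-choline, was the only one of 10 genes of this route that rose, by 0.38. INO1 and the inositol permease gene ITR1 fell 2.04-fold and 2.3-fold, in contrast to the increase of INM1. Of 8 inositol genes 1 rose (2 without zinc replicate 2) and 2 fell.

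In ergosterol synthesis 15 of 29 genes fell and 8 rose, and the number that rose was 5 without zinc replicate 1 or without control replicate 1. ERG20, the farnesyl diphosphate synthase, gave 10.07 and 9.99 on the zinc arrays and 11.76 and 11.76 on the control arrays (3.31-fold lower). ERG1, ERG10 and ERG24 fell by 1.21, 1.04 and 0.86, while UPC2, the activator of the pathway, rose by 0.75. Of 31 fatty acid and sphingolipid genes, 14 rose and 11 fell. The fatty acid synthase genes FAS1 and FAS2 fell by 1.35 and 1.00, and ACC1, the acetyl-CoA carboxylase, by 0.87. TSC13, of very long chain fatty acid synthesis, fell by 1.01. YPC1, an alkaline ceramidase gene, gave 10.89 and 10.86 with zinc and 9.22 and 9.10 without and rose 3.27-fold.

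Cell wall genes changed strongly in both directions, with 24 of 62 genes higher and 26 lower, 8 and 15 of them by 1 or more. SLT2, the MAP kinase of the cell integrity pathway, which answers damage to the wall, gave 12.31 and 12.31 with zinc, against 10.44 and 10.47 on control medium (3.62-fold, log2 change 1.86, SE 0.062, adjusted p = 3.3e-09), and RLM1, the transcription factor that the kinase activates, gave 10.76 and 10.82 on the zinc arrays and 9.44 and 9.39 on the control arrays (2.6-fold). The wall sensor gene MID2 rose by 1.25. PST1, PIR3 and CWP1, wall protein genes, rose by 2.64, 2.15 and 0.62. YPS3, an aspartyl protease of the surface, gave 10.44 and 10.51 with zinc and 7.44 and 7.55 without (7.89-fold), and its relative YPS1 rose by 0.78. YPK2, a kinase gene that is linked to this pathway and to sphingolipid signalling, gave 11.14 and 11.18 with zinc, against 8.04 and 8.38 on control medium (7.74-fold), and its paralogue YPK1 fell by 0.36. The chitin synthase genes differed, with CHS1 higher by 1.13, CHS3 by 0.57 and CHS2, the enzyme of the primary septum, lower at 7.01 and 7.17 on the zinc arrays and 8.75 and 8.90 on the control arrays (3.32-fold).

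Genes that separate daughter from mother cells were lower, 8 of 8. DSE2, a daughter-specific wall protein gene, gave 8.37 and 8.21 with zinc and 10.80 and 10.73 without (5.58-fold lower), and CTS1, the chitinase that opens the septum, gave 9.54 and 9.22 with zinc, against 11.56 and 11.57 on control medium (4.55-fold lower). EGT2, DSE1 and SCW11 fell 2.85-fold, 2.15-fold and 1.97-fold. UTR2, which links chitin to glucan, gave 7.79 and 7.78 on the zinc arrays and 10.48 and 10.46 on the control arrays (6.43-fold lower), and TIP1 and CIS3, mannoprotein genes, fell by 1.96 and 1.88.

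Mating genes of a cells were lower too. Of 33 genes, 19 fell and 4 rose, with a median of -0.29, and all 7 a-specific genes fell. MFA1, a gene of the a-factor pheromone, gave 8.64 and 8.52 with zinc and 11.10 and 11.10 without (5.75-fold lower, log2 change -2.52, SE 0.096, adjusted p = 9.1e-09), and MFA2 fell by 1.87. STE6, the a-factor exporter, gave 8.57 and 8.69 with zinc, against 10.58 and 10.62 on control medium (3.91-fold lower). BAR1, AGA2 and STE2 fell by 1.76, 1.80 and 1.09, and AGA1 and FAR1, genes of the pheromone response in both mating types, by 1.46 and 1.49.

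The markers of other cell types were checked beside these. Of the alpha-specific genes, MF(ALPHA)1 gave 5.84 and 6.00 on the zinc arrays and 8.41 and 8.36 on the control arrays (at least 5.52-fold lower, since its zinc signals lay close to those of the deleted genes), and MF(ALPHA)2 gave 5.73 and 5.71 with zinc and 5.71 and 5.91 without, near the signal of the deleted genes in both media. STE3 and SAG1 had changes of -0.19 and -0.25 (adjusted p = 0.048 and 0.023), calls that were lost without control replicate 1 or without zinc replicate 2. The signals of the 4 alpha-specific genes ran from 5.71 to 7.71 on the zinc arrays and 5.71 to 8.41 on the control arrays. Their part in the change of the a-specific genes was not tested. In the list of alpha and sporulation genes 7 of 24 rose and 6 fell, and the number that fell was 3 without zinc replicate 2 or without control replicate 1. IME1, the master regulator of meiosis, gave 8.67 and 8.29 with zinc, against 6.83 and 6.79 on control medium and rose 3.19-fold, SPO20 and REC8, meiotic genes, rose by 0.99 and 0.96.

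The ER and the secretory pathway were lower in transport and uneven in folding. Of 62 genes for translocation and transport between ER and Golgi, 44 fell (71.0%) and 3 rose (1 without control replicate 1), with a median of -0.37. SEC61, the translocation channel, gave 9.58 and 9.85 on the zinc arrays and 10.69 and 10.85 on the control arrays (2.07-fold lower). ERP2, WBP1 and SEC13, of cargo sorting, glycosylation and the vesicle coat, fell by 0.85, 0.83 and 0.80. In the list of the unfolded protein response and ER folding, 5 of 21 rose and 9 fell. ROT1, a membrane chaperone, ERO1, which oxidises disulfide isomerase, and HLJ1, an ER-membrane co-chaperone, rose by 1.30, 1.06 and 0.95. The signal of HAC1, the transcription factor of that response, does not tell spliced from unspliced mRNA. EUG1, a protein disulfide isomerase gene, fell by 0.98. Among 18 degradation genes 4 rose, UBC7 (0.73), NPL4 (0.69) and USA1 (0.50) among them, and 6 fell (3 without control replicate 2).

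Of 35 vacuolar genes, 22 fell and 9 rose. Many were genes of the proton pump, with 12 of 14 subunit genes lower (VMA9 and VMA10 not without zinc replicate 2 or control replicate 1) and STV1, the subunit isoform of the Golgi, higher by 0.60. VMA3 gave 10.37 and 10.30 with zinc and 11.39 and 11.31 without (2.02-fold lower), and VMA2 and VMA5 fell by 0.98 and 0.94. The aminopeptidase gene APE3 fell by 1.01, and PHO8, a zinc-dependent vacuolar phosphatase gene, rose by 0.71. Of 29 genes of phosphate uptake and the PHO pathway 13 rose and 10 fell, and without control replicate 1 the number that rose was 7. PHM8, a nucleotide phosphatase gene, gave 9.79 and 9.91 with zinc, against 7.79 and 7.88 on control medium (4.05-fold). The phosphate transporter gene PHO84 rose by 0.70, and the acid phosphatase gene PHO5 fell by 0.43.

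The protein synthesis machinery was lower. Of 135 measured genes for cytosolic ribosomal proteins, 100 fell (74.1%), 6 rose and 29 did not pass, with a median of -0.55. RPL9A gave 9.73 and 9.85 on the zinc arrays and 11.85 and 11.85 on the control arrays (4.18-fold lower), RPS2 gave 12.97 and 13.06 with zinc and 14.33 and 14.33 without (2.49-fold lower) and RPS9B gave 10.92 and 10.97 with zinc, against 12.29 and 12.34 on control medium (2.59-fold lower). Many of these genes have a close copy, and RPL9B fell by 1.09. ASC1, a protein of the small subunit, fell by 1.69. Ribosome biogenesis genes fell in 56 of 91 cases (61.5%) and rose in 8, with a median of -0.33. The helicase gene DBP2 and the nucleolar genes RRP1, NSR1 and NOP7 fell by 1.39, 1.39, 1.38 and 1.12. Of 41 translation factor genes 25 fell and 3 rose (1 without control replicate 2). HYP2, the main eIF5A gene, fell by 1.13, STM1, a ribosome-binding protein, by 0.98 and EFT2, one of a pair of identical genes of elongation factor 2, by 0.84.

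Proteasome genes changed less, with 14 of 36 lower, 3 higher and a median of -0.10. The number that fell was 7 without control replicate 1 and 9 without zinc replicate 1 or without control replicate 2. RPN4, the activator of these genes, gave 11.36 and 11.05 on the zinc arrays and 10.51 and 10.21 on the control arrays and rose by 0.84, while the core subunit genes PRE3, PRE6 and PRE9 fell by 0.65, 0.51 and 0.49.

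Cyclin and other cell cycle genes were mostly lower. Of 29 cyclin and mitotic genes, 23 fell (79.3%) and 2 rose, with a median of -0.40, and all 9 cyclin genes fell. With the dimmest 25% of all genes left out, 15 genes of the list remained, 11 of them lower and 2 higher. The cyclin signals reached down to 5.71 on the zinc arrays and 5.91 on the control arrays, close to those of the deleted genes. CLB1, a mitotic cyclin gene, gave 7.09 and 7.14 with zinc and 8.77 and 8.89 without (3.28-fold lower), and SWI5, which turns on genes at the end of mitosis, gave 6.53 and 6.56 with zinc, against 7.90 and 7.75 on control medium (2.42-fold lower). CLB2 fell by at least 1.14, with zinc signals not far above those of the deleted genes. The calls of CLN2, CLB5 and CLB6, with changes of -0.24, -0.29 and -0.20, were each lost without at least 1 of the 4 arrays. In DNA replication 17 of 42 genes fell and 5 rose. The ribonucleotide reductase genes RNR1, RNR2 and RNR4 fell by 1.38, 1.27 and 1.51, whereas RNR3, the subunit induced by DNA damage, gave 7.61 and 7.70 on the zinc arrays and 7.53 and 7.66 on the control arrays (log2 change 0.05, SE 0.081, adjusted p = 0.61). The sliding clamp gene POL30 fell by 1.12. Of 10 histone genes 6 fell and none rose: HTZ1 and HTA2 fell by 0.88 and 0.88.

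Of 30 cytoskeleton genes 17 fell and 2 rose. TUB2, the only beta-tubulin gene, gave 8.57 and 8.66 with zinc and 10.01 and 10.16 without (2.78-fold lower), whereas the alpha-tubulin genes TUB1 and TUB3 changed by -0.27 and 0.29. The tropomyosin gene TPM1 fell 2.29-fold, ARC40 of the Arp2/3 complex 1.94-fold and the actin gene ACT1 1.44-fold. ASE1, a microtubule bundling protein of the spindle midzone, went the other way, at 9.78 and 9.45 with zinc, against 7.70 and 7.62 on control medium (3.88-fold higher). Peroxisome and fatty acid oxidation genes were near the background, with 10 of 39 higher and 13 lower. OAF1, their oleate-responsive activator, rose by 0.58, and ANT1, the peroxisomal ATP carrier, fell by 0.57.

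The same zinc dose was also given to yeast that made AhPDF1.1b, on arrays that share no sample with these 4, and the difference of the zinc effects was tested in the joint fit. It passed for 2095 of 6226 genes, 33.6%, of which 1100 (17.7%) had a more positive zinc effect with AhPDF1.1b and 995 (16%) a more negative one. Slide and this difference are entangled, since the zinc arrays without AhPDF1.1b were all on slide 2 and those with AhPDF1.1b all on slide 1. With slide as a block 1258 genes passed.

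Ribosomal protein, sulfate and cell cycle genes had smaller median zinc effects in AhPDF1.1b yeast, whereas the zinc uptake gene ZRT1 and the a-factor gene MFA1 were far lower with zinc in both. The cytosolic ribosomal proteins had a median of -0.55 without AhPDF1.1b and -0.09 with it, and the difference passed as more positive for 82 of 135 genes. RPS2 had a zinc effect of -1.31 without AhPDF1.1b and -0.08 with it (difference, with minus without, 1.24, SE 0.093, adjusted p = 6.7e-06). Ribosome biogenesis genes had medians of -0.33 and -0.35, and the difference passed for 10 of 91 as more positive and 7 as more negative. The Aft1/Aft2 genes had medians of 0.95 without and 0.72 with AhPDF1.1b, and sulfate and methionine genes 0.76 and 0.31, with a more negative difference for 13 of 31 and 19 of 36 genes. Glycolytic genes had a median of 0.26 without AhPDF1.1b and -0.17 with it, with 20 of 32 more negative. ENO1 had a zinc effect of 1.80 without AhPDF1.1b and -0.18 with it (difference -1.98, SE 0.11, adjusted p = 8.6e-07). Ergosterol genes had medians of -0.27 without and 0.13 with AhPDF1.1b, with 19 of 29 more positive, and the cyclin and mitotic genes -0.40 and -0.11, with 14 of 29 more positive. The heat shock genes had medians of 0.33 and 0.39. ZRT1 had a zinc effect of -3.72 without and -2.98 with AhPDF1.1b (difference 0.73, SE 0.091, adjusted p = 0.0002). For the a-factor gene MFA1 the effects were -2.52 and -2.50 (difference 0.02, SE 0.14, adjusted p = 0.91). These 4 differences kept their side of the threshold with slide as a block.

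**Figure D5:**
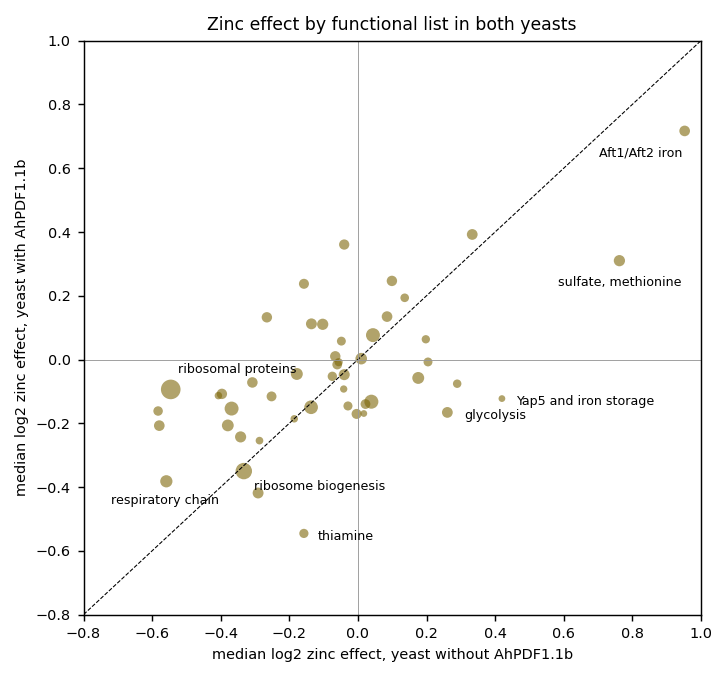
Median log2 zinc effect of each of the 49 functional lists in yeast without AhPDF1.1b (x axis) and in yeast with AhPDF1.1b (y axis). Point area grows with the number of measured genes, and the dashed line marks equal medians. The ribosomal proteins (-0.55 and -0.09) and the glycolytic genes (0.26 and -0.17) lie off the line, ribosome biogenesis (-0.33 and -0.35) lies on it.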

How the data were processed

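RNA from the colonies was labelled with Cy3 and hybridised to 1-colour Agilent yeast arrays, 1 array per culture, with 2 biological replicates in each of 4 conditions. The deposited table held log2 signals, 1 per probe and array, made by the authors. Among tools, R 2.14.2 and limma appear in what the submitters noted on processing. The sources used here do not give the background correction or the normalization. A global scaling would hide any change in total RNA per cell. Of 6227 probes, 4061 had 1 gene symbol and 2166 had none here, and 2 probes of 1 gene were averaged. Current RefSeq names replaced 125 symbols. All 8 sample columns were used.

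The values were taken as deposited and fitted with limma 3.58.1 in R 4.3.3, with 1 mean per condition over all 8 arrays (4 residual degrees of freedom) and eBayes moderation. P-values are two-sided and were adjusted by Benjamini-Hochberg over 6226 genes. The test of the zinc effect was checked on simulated arrays with a small share of genes changed and independent noise. These arrays differ from that setting, since most genes passed. Slide was the only batch in the labels, and as a term in the fit it passed for 0 genes in limma (104 at an unadjusted p under 0.05). The arrays, the functional lists and the rule for named genes were chosen with earlier results of these data known. The text names genes that this rule took, but not every member of the zinc lists or every gene the study names. KAR2 and HRD1, for example, are not given. The rule took the 20 largest increases and decreases without overlap between groups and up to 4 genes with the smallest p per list. It also took all zinc genes, strain and vector markers, genes the study names and the 10 largest differences between the yeasts in each direction. Partners of these genes and the smaller groups inside a list were chosen after their values were seen. Alternatives were quantile normalization, median centring, removal of the dimmest 25% of genes, a block for slide or for replicate number, a trended robust fit, array weights, the 4 arrays alone, a minimum change of 1.2-fold and leaving out each array. The probe sequences were not used, so signal shared between near-identical genes was not measured.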

Additional observations from a re-analysis of the deposited data

Results flagged for a closer look

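The zinc effect differed between yeast without and with AhPDF1.1b for 2095 genes (limma, test of the difference). Of these, 932 had an effect of the same sign that was smaller with AhPDF1.1b, 261 had one that was larger and 902 had effects of opposite sign. Only the sign of the estimates was used, whether or not either effect passed. Genes with almost no effect in either yeast alone can thus fall on any side, and a reversal was not tested. The zinc arrays of both yeasts lay on different slides, so slide and this difference cannot be fully told apart. The differences below are AhPDF1.1b yeast minus yeast without it, in log2 units, and each also passed with slide as a block. Groups of 2 arrays are too small for a test of single outlying samples.

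Several of the largest increases without AhPDF1.1b had little or no counterpart with it. INM1 had an effect of 4.66 without AhPDF1.1b and 1.00 with it (difference -3.67). PCL10 had an effect of 3.58 without AhPDF1.1b and 0.10 with it (difference -3.48). AMD2 had an effect of 3.13 without AhPDF1.1b and 0.24 with it (difference -2.88). The phosphatase gene GPP2 had an effect of 3.02 without and 0.35 with AhPDF1.1b (-2.68), and FRM2 of 2.42 and -0.06 (-2.48). The difference was more positive with AhPDF1.1b for 7 and more negative for 12 of 42 nitrogen genes, and for 4 and 6 of 19 salvage genes. Single genes of these lists had effects of opposite sign in the 2 yeasts. MEP2 had an effect of 1.88 without and -1.01 with AhPDF1.1b (-2.88), URH1 of 2.25 and -0.63 (-2.88) and FCY22 of 2.01 and -0.76 (-2.77). The glycolytic gene ENO2, in neither list, had 0.67 and -1.94 (-2.61).

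THI4 did not pass without AhPDF1.1b (-0.14) and fell by 3.53 with it (-3.40), while THI5, which shares its regulation, fell by 4.76 without AhPDF1.1b and had an effect of -3.69 with it.

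The 10 most positive differences included genes of the wall and of cell separation. CIS3 had an effect of -1.88 without and -0.04 with AhPDF1.1b (difference 1.84), EGT2 of -1.51 and 0.10 (1.61), DSE4 of -0.54 and 1.15 (1.69) and the mannoprotein gene TIR3 of -0.33 and 1.52 (1.85). Among carbon genes, HXT4 had effects of -0.22 and 1.36 (1.59), SUC2 of -1.17 and 0.38 (1.56) and GSY1 of -1.23 and 0.22 (1.45). The zinc-limitation gene ZPS1 had effects of -3.93 and -2.34 (1.59), the phosphate transporter gene PHO84 of 0.70 and 2.29 (1.58) and the ribosomal gene ASC1 of -1.69 and -0.11 (1.58).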

How the results depend on the processing

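The 2 arrays per condition limit the precision, and an array signal has no count behind it. Direction was compared only for genes that passed in the main fit, the one without alternatives. Among the 507 genes tried, none that passed there turned its direction in the 8587 combinations of gene and alternative. In 172 of these a call was lost and in 30 one was gained. Many of the 507 genes were chosen for large changes or small p. Direction could turn only under quantile normalization, median centring, a slide block or loss of any of the 4 arrays without AhPDF1.1b. The other alternatives leave the log2 change of a gene as it is, so their combinations say nothing about direction. A minimum change of 1.2-fold left 1943 genes, 944 higher and 999 lower, against 3695 (1732 and 1963), a stricter test by construction. With slide as a block 3339 genes passed, 3290 of them shared with the 3695 and all of those in the same direction, but the difference between the yeasts passed for 1258 genes (600 more positive and 658 more negative with AhPDF1.1b), against 2095 (1100 and 995); the cause was not tested. Leaving out 1 array gave 3146 to 3799 genes for the zinc effect (1486 to 1772 higher, 1660 to 2027 lower) and 1584 to 2019 for the difference. An arm left with 1 array was assumed to vary like the others. Replicate numbers in the labels are only numbers: arrays of the same number deviated together in the media without AhPDF1.1b (r = 0.54 across genes) and apart in those with it (r = -0.40), and with a replicate block 3593 genes passed the zinc effect. Of the 49 list medians, 11 changed sign under some alternative, none of them above 0.10 in size in the main fit. In all 4 pairs of a zinc and a control array, 40 medians had 1 sign. The sulfate of the added salt was not separated from zinc by further arrays.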

Other observations

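The following genes belong to none of the lists above and were chosen after their values were seen, so they stand for no group. PMA1, the proton pump that energises most uptake in yeast, gave 14.60 and 14.61 on the zinc arrays and 12.74 and 12.96 on the control arrays (3.38-fold, limma adjusted p = 3.5e-07), whereas PMA2 gave 7.92 and 7.68 with zinc and 7.84 and 7.97 without (adjusted p = 0.38). PMP2, a small proteolipid that binds the pump, gave 10.72 and 10.64 with zinc, against 9.15 and 9.02 on control medium (3.02-fold), and its close relative PMP1 had a log2 change of -0.08 (adjusted p = 0.54). AST1, which helps deliver the pump to the membrane, gave 8.68 and 8.66 on the zinc arrays and 6.41 and 6.50 on the control arrays (4.65-fold), against a log2 change of -0.03 for AST2 (adjusted p = 0.74). The kinase gene HRK1, an activator of the pump, gave 10.69 and 10.56 with zinc and 8.99 and 8.99 without (3.11-fold), and PTK2, another such kinase gene, had a log2 change of 0.28 (adjusted p = 0.089). PPZ1, a phosphatase gene of ion homeostasis, rose 2.34-fold and PPZ2 had a log2 change of -0.14 (adjusted p = 0.22). HAL5, a kinase gene of potassium uptake, rose 2.38-fold. PBS2, the kinase above Hog1 in the osmotic stress pathway, gave 10.70 and 11.09 with zinc, against 9.65 and 9.87 on control medium (2.19-fold), while HOG1 fell by 0.27. MCM1, a transcription factor of mating type and cell cycle genes, gave 11.57 and 11.81 on the zinc arrays and 9.70 and 9.79 on the control arrays (3.83-fold).

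The next genes were chosen in the same way. EGD1 and EGD2, subunits of the nascent polypeptide-associated complex, gave 10.46 and 10.38 with zinc and 11.68 and 11.58 without (2.31-fold lower) and 11.53 and 11.49 with zinc, against 12.95 and 12.83 on control medium (2.6-fold lower). ZUO1 and SSZ1, partners of the ribosomal Hsp70, fell by 0.73 and 0.47. Of 17 cytosolic aminoacyl-tRNA synthetase genes measured, 10 fell and 1 rose, with a median of -0.46. SES1 gave 9.33 and 9.26 on the zinc arrays and 10.46 and 10.36 on the control arrays (2.17-fold lower), and ARC1, which assists a pair of these enzymes, gave 9.77 and 9.73 with zinc and 10.91 and 10.99 without (2.3-fold lower). THS1 and GRS1 fell by 0.90 and 0.94, whereas MES1 had a log2 change of 0.00 (adjusted p = 0.99).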
